A study of Homo sapiens with 6 samples.

Results

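The region described is chromosome 6 from 60 Mb to its end in hg38, 110.8 Mb that hold most of the long arm and 3.59% of the length of the 24 chromosomes. Its members are all peaks of open chromatin on chromosome 6 that begin at or beyond 60 Mb, and they number 6516 of the 1044250 peaks in 6 lists. They come from ATAC-seq, in which the Tn5 transposase cuts and tags open DNA, of cells cultured from xenograft tumors of SK-N-AS, a human neuroblastoma line that is labelled SKNAS. Naïve cells came from tumors of vehicle-treated mice, and the resistant cells R1 and R2 came from resistant tumors of indisulam-treated mice, which the labels describe as harvested at a repeated relapse while treatment was given. Indisulam is a compound that brings the splicing factor RBM39 to the DCAF15 ubiquitin ligase for degradation. All cells were cultured before the assay and the labels give them no further treatment, and each library was made from 100000 cells. There were 2 libraries of naïve, 2 of R1 and 2 of R2 cells, and nothing in the sources used here says whether the 2 libraries of a cell type came from separate cultures. The labels name R1 and R2 as 1 population each, so a difference between R1 and R2 is one between 2 such populations.

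ATAC-seq peaks mark DNA that is free enough of nucleosomes for the transposase to cut, chiefly the starts of active genes and distal regulatory elements. The number of cuts at a site rises both with how open the site is and with how many copies of that DNA a cell holds. Large parts of chromosome arms, the long arm of chromosome 6 among them, are lost or gained in cancers, and the long arm of chromosome 6 carries genes of ubiquitin conjugation, autophagy, RNA processing, the extracellular matrix and the cytoskeleton. DNA copy number was not analysed here, and the amount of DNA and the openness of each copy cannot be told apart in these lists.

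The sequences below are those of the regions on which the description turns, each within 100 bp of the peak summit, in hg38 and on the plus strand. They are given in lower case, with capitals for matches on either strand to the letters searched, which were GGGCGG (an SP-type GC box), CACGTG (an E-box), the AP-1 motif of TGA and TCA with any base between them, GGAATG (TEAD), TGACGTCA (CRE) and a motif of the CTCF type. Motifs of GATA factors were searched for by the letters AGATAA. Stretches in annotated untranslated exons were left out. Since at most 44 bases outside them remained at the starts of OSTM1 and BEND3, no sequence is printed for these.
The start of FAM135A, with the highest rise in rank from naïve to resistant cells (chr6:70413257-70413420): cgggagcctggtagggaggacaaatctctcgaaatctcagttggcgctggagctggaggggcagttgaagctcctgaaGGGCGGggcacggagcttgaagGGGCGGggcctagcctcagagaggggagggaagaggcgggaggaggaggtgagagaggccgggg
The region beside the start of RAB32, with the largest fall (chr6:146543561-146543761): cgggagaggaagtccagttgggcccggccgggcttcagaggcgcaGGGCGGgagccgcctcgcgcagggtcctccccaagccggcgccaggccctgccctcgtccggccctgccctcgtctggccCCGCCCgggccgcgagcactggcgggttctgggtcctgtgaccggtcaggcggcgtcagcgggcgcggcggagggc
The start of GRIK2, with the best list places among regions that had a peak in all 4 resistant libraries and in neither naïve library (chr6:101393558-101393707): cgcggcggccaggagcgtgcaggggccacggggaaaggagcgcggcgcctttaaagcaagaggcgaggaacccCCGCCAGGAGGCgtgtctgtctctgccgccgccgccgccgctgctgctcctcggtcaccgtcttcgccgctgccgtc
The intron of TMEM242 with the best mean rank over all 6 libraries (chr6:157310657-157310857): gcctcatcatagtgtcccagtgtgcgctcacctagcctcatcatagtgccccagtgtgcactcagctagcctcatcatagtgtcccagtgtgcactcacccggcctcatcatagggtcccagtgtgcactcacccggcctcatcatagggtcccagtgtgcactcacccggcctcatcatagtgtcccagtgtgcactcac
The first and second sequences each hold 2 GC boxes, and the third holds 1 CTCF-type match. The TMEM242 sequence holds none of the motifs and consists of a tandem repeat, as 94.6% of its bases recur 34 bp further on. Reads from a repeat can come from more than 1 copy, so the high rank of this region is uncertain.

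Depth differed among the libraries. The lists held 154926 and 115694 peaks (naïve), 340558 and 292030 (R1) and 67558 and 73484 (R2), and the background rates recovered from them were 2.29 and 1.35 tags (naïve), 7.94 and 5.43 (R1), and 0.850 and 0.899 (R2). A peak therefore needed at least 14 tags in R1 and could be called from 6 in R2. Of 7 genes that mark adrenergic neuroblastoma cells, 6 or 7 had a peak at their start in each library, and of 7 that mark mesenchymal neuroblastoma cells, 5 to 7 did.

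Peaks were scarce beyond 60 Mb in all 6 libraries, and more so in naïve cells. The first and second naïve libraries had 378 and 297 peaks there, those of R1 2909 and 2128, and those of R2 407 and 397. As a share of each list these were 0.244% and 0.257% (naïve), 0.854% and 0.729% (R1) and 0.602% and 0.540% (R2). The 3 cell types did not overlap. Peaks per Mb amounted to 6.98% ± 0.251 of the list's own genome-wide density in naïve cells, to 22.1% ± 2.47 in R1 cells and to 15.9% ± 1.23 in R2 cells (SD, n = 2 libraries each). On chromosome 6 before 60 Mb the first naïve library had 53.1 peaks per Mb, and between 60 and 110 Mb it had 2.58.

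Lists of equal length gave the same order of cell types. Among the 20000 peaks with the lowest p in each list, 86 and 85 lay beyond 60 Mb in naïve cells, but 270 and 253 did in R1 cells, and 177 and 160 in R2 cells. The mean share was 0.428% ± 0.00354 for naïve, 1.31% ± 0.0601 for R1 and 0.843% ± 0.0601 for R2 (SD, n = 2 each), while the segment holds 2.16% of protein-coding genes. Scarcity did not mean that the segment lacked strong peaks. Its best peak stood at place 279 and 156 in the naïve lists, 212 and 139 in the R1 lists, and 96 and 137 in the R2 lists.

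**Figure D1:**
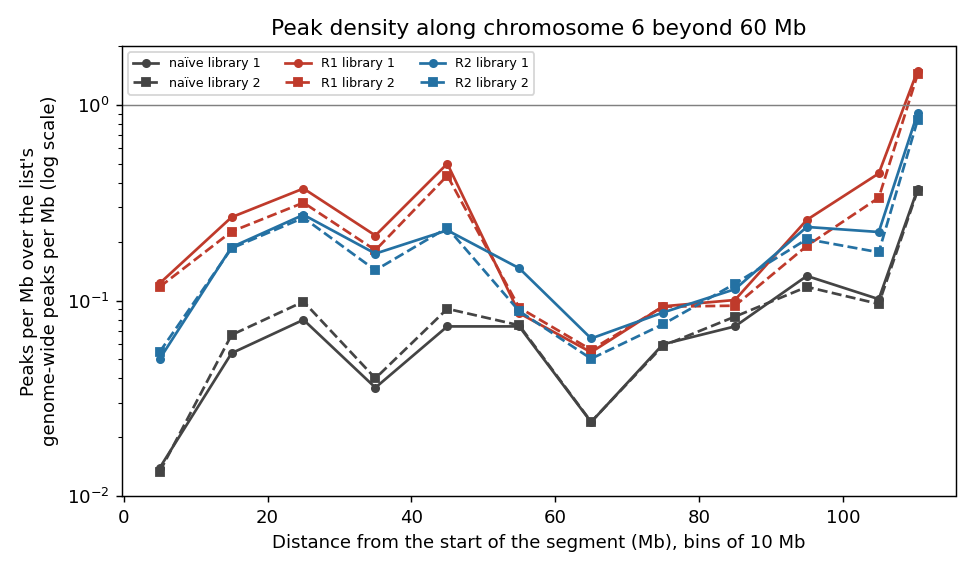
Peaks per Mb in bins of 10 Mb, divided by the genome-wide peaks per Mb of the same list (log scale), against the distance in Mb from 60 Mb, with 1 line for each of the 6 libraries and a grey line at 1. The naïve libraries lie lowest in every bin, the lines approach each other from 50 to 90 Mb of distance, and the last bin of each list is its densest.

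The peaks that remained in naïve and R2 cells were mostly at gene starts. Within 1000 bp of an annotated start lay 71.4% and 78.1% of the peaks of the segment in naïve cells and 65.1% and 67.0% in R2, against 29.4% to 41.6% of those whole lists. In R1, which had many more peaks, the shares were 23.9% and 29.8%, against 19.4% and 21.2% of the whole lists. Of the 432 protein-coding genes of the segment, 235 and 214 had a peak at a start in naïve cells, 362 and 352 did in R1 cells and 229 and 227 in R2 cells. These are 54.4% and 49.5% of its genes in naïve cells where the genome had 74.9% and 71.4%, 83.8% and 81.5% in R1 where the genome had 87.0% and 85.5%, and 53.0% and 52.5% in R2 where the genome had 65.5% and 66.5%. The gap to the genome was widest in naïve cells. The R2 lists were the shorter, and the part of depth in the gap was not tested.

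**Figure D2:**
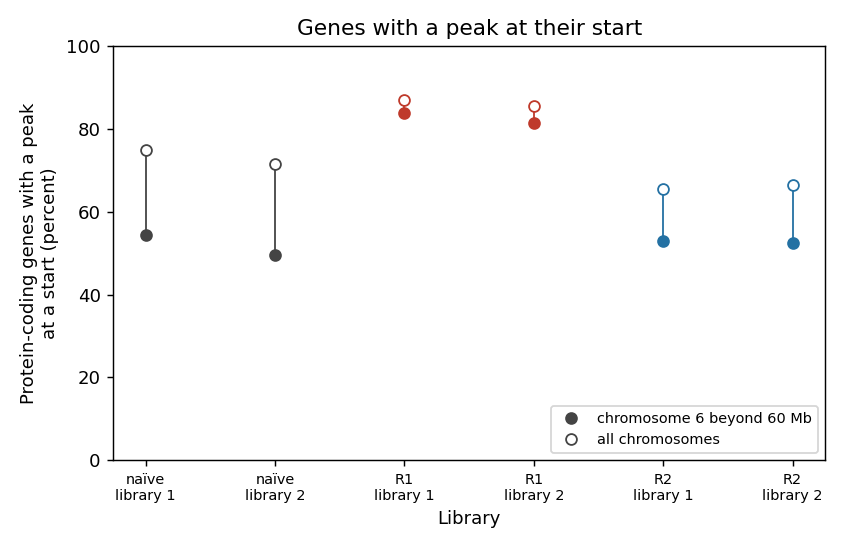
Percent of protein-coding genes with a peak within 1000 bp of a start in each of the 6 libraries, as filled points for chromosome 6 beyond 60 Mb and open points for all chromosomes. The line between the points is longest in the naïve libraries (54.4% and 49.5% against 74.9% and 71.4%) and shortest in R1.

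Merged over the 6 lists, the peaks formed 3366 regions of 373067 in the genome. Most were in R1 libraries only, 2783 or 82.7%, against 67.1% genome-wide. A peak in a naïve list covered 392 of them, 11.6% against 30.2% genome-wide. All 3 cell types shared 279, which is 8.29% against 11.8%. A peak in all 4 resistant lists and in no naïve list was found at 36, and these are 3.93% of the 915 such regions of the genome, of which all merged regions of the segment are 0.902%. Of these 36 regions, 26 began before 110 Mb and 21 lay at gene starts. The reverse, a peak in both naïve lists and in no other, occurred at 5, which is 0.149% of the merged regions of the segment and close to the 0.174% found genome-wide.

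The naïve-free regions with the best list places were at GRIK2, near ELOVL4 and in an intron of BCKDHB. The GRIK2 region (chr6:101392964-101394292) spans a start of a glutamate receptor subunit, and its sequence is printed above. It stood at places 6012 and 8114 in the R1 lists with 167 and 96 tags, and at places 11088 and 7665 in the R2 lists with 15 and 18 tags. The naïve lists had no peak there. The region chr6:79869582-79869930, 77795 bp from the nearest protein-coding start, that of ELOVL4, had 132 and 100 tags in the R1 libraries and 14 and 15 in those of R2. The BCKDHB region (chr6:80210568-80210970) had 148 and 99 tags in R1 and 11 and 12 in R2.

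Regions of 1 cell type were mostly those of R1, the deepest libraries. A peak in both R1 lists and in no other was found at 1150 regions, 34.2% of those of the segment against 30.0% genome-wide. Of the 1150, 229 or 19.9% lay at gene starts and 692 began before 110 Mb. The best placed lay in an intron of MYO6 (chr6:75775095-75775667), at places 7507 and 9174 with 150 and 90 tags. At the start of PRSS35 (chr6:83511822-83512713) the R1 lists had 119 and 68 tags. Another region, 77615 bp from RGS17 (chr6:153208725-153209060), had 120 and 65. Both R2 lists alone shared 3 regions (0.0891% against 0.0445% genome-wide), in SMOC2 and near ADGRB3 and AKIRIN2, with 7 to 15 tags, and 2 of them were 200 bp wide, the extension used in peak calling. The naïve-only regions named by the same rule, near THBS2, in RNASET2 and in RPS6KA2, had 11 to 22 tags.

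To compare levels at overlapping places, peaks of the first R2 library that met a peak in every other list were ranked by p in each library. A region took the highest value of any peak that met it, so a wide peak could count for neighbouring regions. There were 36449 such regions, and 168 of the 407 peaks of that list beyond 60 Mb were among them. In the other lists 162 to 176 peaks of the segment fell into these regions. The 168 are thus the small set open in every library, mainly gene starts (151, or 89.9%, against 52.9% of all 36449), GC-rich (a median of 66.6% against 62.9%), and they do not stand for the peaks seen in R1 alone. The segment itself was chosen by these values, the rise in rank from naïve to resistant cells, so that the ranks are described without a test. With 2 against 4 libraries an exact permutation test could not give a two-sided p below 0.133.

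The shared regions of the segment ranked low in naïve cells and above the middle in resistant cells. Their median percentile rank, where 50 is the middle of all shared regions, was 30.6 and 32.2 in the naïve libraries, 63.3 and 60.1 (R1) and 69.3 and 63.6 (R2). The mean was 31.4 ± 1.15 in naïve cells (SD, n = 2) and 64.1 ± 3.83 in resistant cells (SD, n = 4), and the ranges did not overlap. Above the 75th percentile lay 10 and 15 of the 168 regions in naïve cells, but 52 and 51 for R1, and 70 and 62 for R2. Below the 25th percentile lay 69 and 74 in naïve cells and 12 to 25 in the resistant libraries.

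The shift in rank, resistant minus naïve after taking off the median of regions of like GC content, had a median of 26.0 percentile points, with a middle range from 10.9 to 40.0 and extremes of -31.4 and 63.99, and it was positive at 154 regions. It was 23.7 in R1 and 28.2 in R2. Over all 36449 regions the median is 0, and over the 19264 at gene starts it was 0.797. In tags over the library median the regions stood 1.46 times higher in resistant than in naïve cells. When the 50000 best peaks of every list were merged, so that a region absent from a library was ranked last, the shift was 15.03, with 23.8 in R1 and 11.0 in R2.

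All 4 resistant ranks were above both naïve ranks at 88 of the 168 regions, or 52.4%, where 12.7% of all regions were. All 4 were below both at 1 region, where 12.8% of all were. R1 alone was above naïve at 107 regions (background 27.4%) and below at 16 (34.5%). For R2 alone, 116 were above (26.4%) and 2 below (22.3%). These counts use the contrast by which the segment was chosen.

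The boundary at 60 Mb fell in a stretch without shared regions. The last 3 before it, at chr6:57961341-57961567, chr6:58784743-58784993 and chr6:58840308-58840534, had shifts of -4.61, -7.56 and -5.91. The first 3 beyond it were in PTP4A1 (chr6:63572154-63572596), beside the start of PHF3 (chr6:63635549-63636300) and beside that of ADGRB3 (chr6:68634618-68635367), with shifts of 33.1, 52.3 and 39.9. These places are unlike. The 3 before the boundary lay 428979 to 1307999 bp from the nearest protein-coding start, and the 3 beyond it at most 207 bp. Over the 573 shared regions before 60 Mb the median shift was 3.00. A segment of similar shift, chromosome 13 from 60 Mb, had a median of 32.6 over 298 regions.

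**Figure D3:**
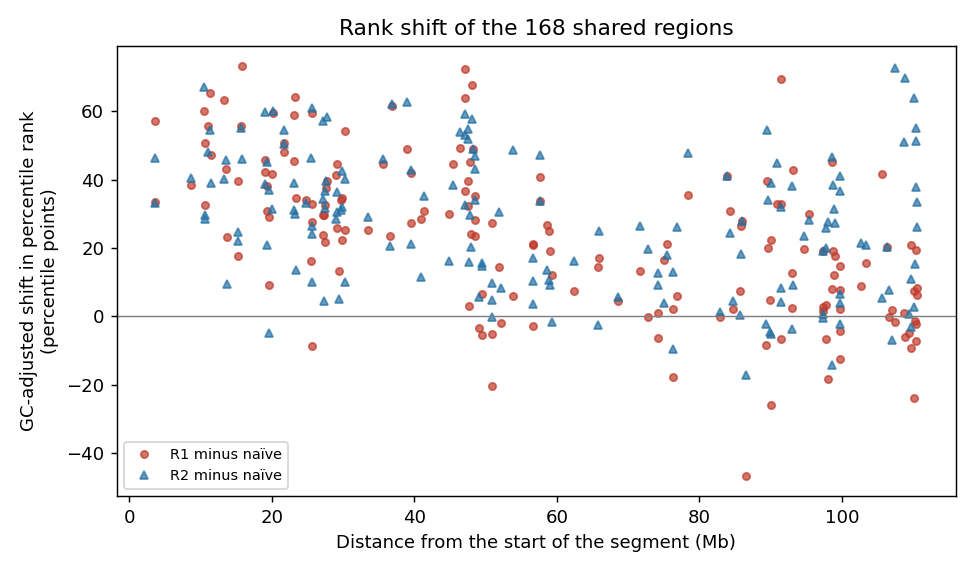
GC-adjusted shift in percentile rank of each of the 168 shared regions against distance in Mb from 60 Mb, for R1 minus naïve (circles) and R2 minus naïve (triangles), with a line at 0. Before 50 Mb of distance the points lie almost all above 0 in both. Beyond it those of R1 spread to both sides of 0, with a median of 7.90, while more of those of R2 stay above.

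The shift was not even along the arm. Divided at 110 Mb, a place chosen after the values were seen, the 80 regions from 60 to 110 Mb had a median shift of 36.9, with 37.1 in R1 and 36.5 in R2, and all 80 were positive. The 88 regions beyond had 17.5, with 7.90 in R1 and 17.6 in R2, and 74 were positive. The tag level in resistant over naïve cells was 1.83 times in the first stretch and 1.26 times in the second. All 4 resistant ranks exceeded both naïve ranks at 66 regions of the first stretch (82.5%) and at 22 of the second (25%), beside the background of 12.7%.

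The break lay close to 109 Mb. At the FOXO3 start, whose last shared region begins at 108560498, the shift was 33.5, and at the next shared region, the start of SESN1 and CEP57L1 at chr6:109094462-109095227, it was 1.16. Divided at 109 Mb the medians were 39.2 over 77 regions and 16.6 over 91. The number of peaks changed at the same place in R1. Between 108 and 109 Mb the R1 libraries had 118 and 80 peaks and between 109 and 110 Mb 23 and 23. The R2 libraries went from 14 and 16 to 5 and 5. In the naïve libraries, with 10 and 8 before and 7 and 10 after, the count did not fall in both.

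In bins of 10 Mb, the 5 bins from 60 to 110 Mb had median shifts of 39.9, 41.4, 33.7, 42.2 and 35.0. The 7 bins beyond had 18.3, 9.23, 10.2, 13.5, 21.8, 17.6 and 21.3, and some of the 12 held few regions, 3 in the first and 4 from 120 to 130 Mb. Several single bins depended on the settings: the bin from 140 Mb fell from 13.5 to 1.80 under a stricter q filter, and the bin from 150 Mb from 21.8 to 9.62 with regions of the first R1 list. Elsewhere in the genome 274 bins with at least 10 regions ran from -26.5 to 34.4 with a median of 4.44, the highest being on chromosome 13. The 4 resistant medians exceeded both naïve medians in 11 of the 12 bins. How many of the 274 other bins had this order was not counted, so whether 11 of 12 is unusual cannot be told. In the last, short bin R2 stood at 83.6 and 79.2, while R1 stood at 43.99 and 34.2 beside naïve medians of 24.9 and 40.9.

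**Figure D4:**
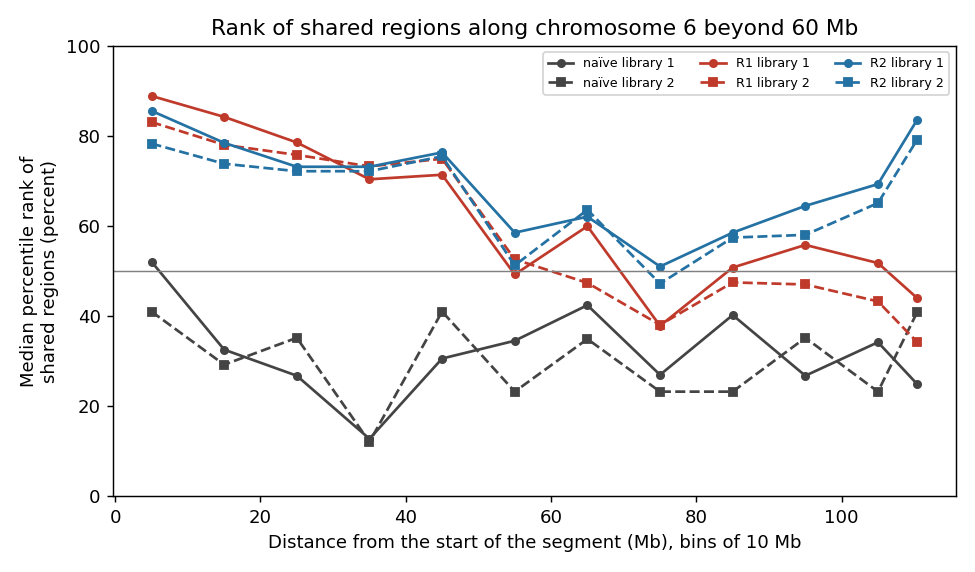
Median percentile rank of the shared regions in bins of 10 Mb against distance in Mb from 60 Mb, with 1 line for each of the 6 libraries and a grey line at 50. From the start to 50 Mb the R1 and R2 lines run together well above the naïve lines, and further on the R1 lines drop toward the naïve ones while the R2 lines mostly stay higher, most of all in the last bin.

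R1 and R2 ran together in the first stretch and lay further apart in the second, most of all away from gene starts. The median of R1 minus R2 was -0.872 points from 60 to 110 Mb and -9.92 beyond, beside median gaps between the 2 libraries of a cell type of 13.1 in naïve, 6.44 in R1 and 15.4 in R2 in that second stretch. Both R1 ranks lay below both R2 ranks at 41 of the 88 regions beyond 110 Mb and at 19 of the 80 before (background 34.5%). The opposite was found at 10 and 18 (background 26.4%). At the 17 regions away from gene starts the R1 shift was 2.90 and the R2 shift 29.5, while at the 151 starts they were 25.7 and 28.1. Of these 17 regions, 13 lay beyond 110 Mb, with a median shift of 1.65 in R1 and 37.8 in R2. At the 75 regions at starts beyond 110 Mb the shifts were close, 12.0 in R1 and 13.6 in R2.

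Among genes, 152 of the 432 had a shared region at a start, in 129 distinct regions. A gene with several such regions was taken by the one with the best mean rank. The median shift over these genes was 22.9 points. It was positive in 136, all 4 resistant ranks were above both naïve ranks in 81, or 53.3%, and below in 1, where 12.7% and 12.8% of all shared regions were. The 8 genes with the highest shift all lay before the break. BEND3 was taken at 35.0 and is not among them, though its other start region had a shift of 62.6.

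FAM135A headed the list, with ranks of 9.84 and 23.2 in the naïve libraries, 85.1 and 66.6 (R1) and 83.8 and 78.3 (R2), a shift of 63.99. The resistant and naïve ranks lay far apart. OSTM1, the partner subunit of a lysosomal chloride transporter, stood at 23.0 and 29.2 in naïve cells, at 96.3 and 96.6 (R1) and at 79.1 and 93.6 (R2), a shift of 63.2. Tags there were 21 and 15 in naïve cells, 325 and 224 in the deeper R1 libraries, and 18 and 30 in the shallower R2 libraries. A region at a start of BEND3 (chr6:107115383-107116106) stood at 0.779 and 3.63 in naïve cells, at 71.8 and 78.6 (R1) and at 41.5 and 72.2 (R2). The R2 libraries differed from each other more than the R1 libraries did. Both R1 values and the second R2 value equal those of the neighbouring BEND3 region (chr6:107114222-107115212). That region ranked at 30.6 and 41.0 in naïve cells and had a shift of 35.0.

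MTRES1, NDUFAF4, BCKDHB and FBXL4 were among the same 8. MTRES1, the mitochondrial transcription rescue factor, ranked at 9.84 and 35.2 in naïve cells, at 87.0 and 87.2 (R1) and at 83.8 and 84.7 (R2). NDUFAF4, which helps to assemble the first complex of the respiratory chain, ranked at 12.8 and 7.28 in naïve cells, at 70.4 and 73.2 (R1) and at 73.2 and 68.3 (R2). BCKDHB, a subunit of the enzyme that breaks down branched-chain keto acids, ranked at 55.1 and 12.1 in naïve cells, at 94.6 and 89.6 (R1) and at 94.6 and 92.9 (R2). The naïve libraries stood apart for BCKDHB, and both lay below every resistant library. Without the second naïve library the shift of BCKDHB was 35.99 in place of 59.4. FBXL4, a mitochondrial F-box protein, ranked at 3.02 and 12.1 in naïve cells, at 57.4 and 60.7 (R1) and at 64.5 and 80.8 (R2).

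The other 2 were OGFRL1, with a shift of 60.4, and MYO6. MYO6 encodes the myosin that walks toward the minus end of actin filaments. Its start had the lowest rank of the segment in the first naïve library, 0.0480 with 10 tags, and tied with others for the lowest in the second, 1.34 with 9 tags. It ranked at 74.3 and 74.95 in R1 and 64.5 and 34.0 in R2. R1 and R2 did not overlap here.

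**Figure D5:**
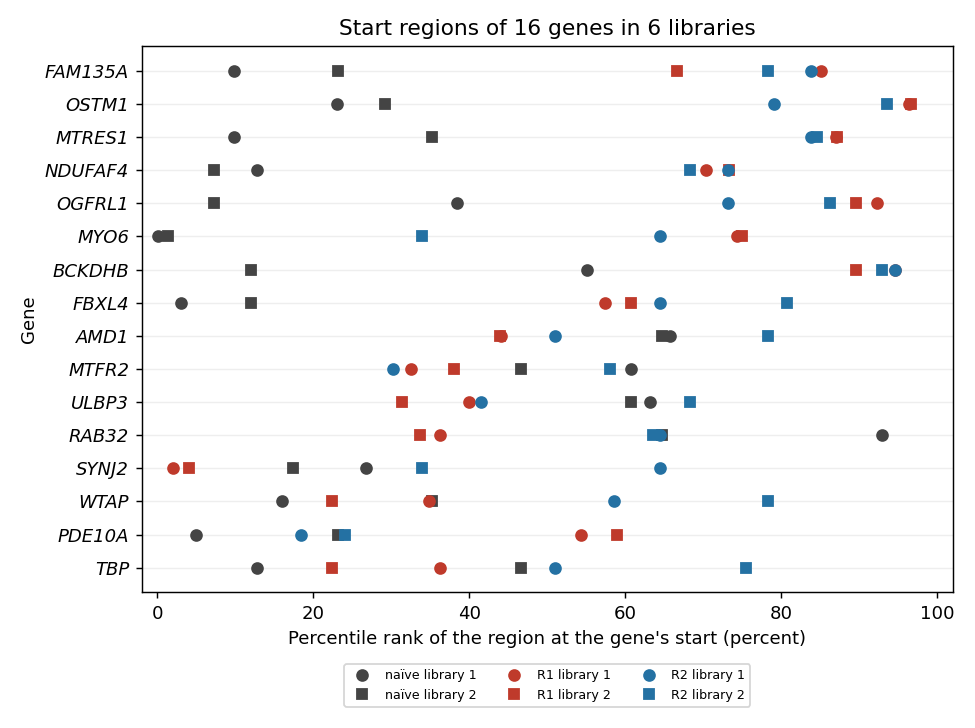
Percentile rank of the start region of 16 genes in the 6 libraries (naïve grey, R1 red, R2 blue, circles for the first and squares for the second library), for the 8 highest shifts, the 4 lowest and the 4 with the largest difference between R1 and R2, from top to bottom. In the upper 8 rows the coloured points lie right of both grey points, and in SYNJ2 the red points lie left and the blue points right of them.

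The 4 lowest shifts were all beyond 110 Mb. RAB32, a small GTPase of lysosome-related organelles, ranked at 92.9 and 64.7 in naïve cells, at 36.3 and 33.7 (R1) and at 64.5 and 63.6 (R2), and was the 1 gene with every resistant library below both naïve libraries. The second naïve library and the R2 libraries lay within 2 points of each other. Without the first naïve library the shift, -31.4, was -15.2. ULBP3, a ligand of an activating receptor of natural killer cells, had a shift of -15.1. MTFR2, a regulator of mitochondrial fission, had -13.4, and AMD1, an enzyme of polyamine synthesis, had -10.2. In these 3 genes R1 ranks were below both naïve ranks, while the second R2 library exceeded at least 1 of them.

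Ranked genes were compared by their start region of best mean rank. Among them R1 and R2 differed most at SYNJ2, WTAP, PDE10A and TBP, all beyond 155 Mb. Some other regions differed more. Another start region of ZBTB2 (chr6:151391535-151391734) had 79.3 and 75.8 in R1 and 30.3 and 5.95 in R2. Another of ZNF292 (chr6:87151880-87152122) had R1 minus R2 of -34.4, beside -33.9 at TBP. The region chr6:170398469-170399612, away from gene starts, differed most of all shared regions of the segment. It ranked at 26.8 and 35.2 in naïve cells, at 3.75 and 12.8 (R1) and at 94.6 and 96.1 (R2). SYNJ2, an inositol phosphatase, ranked at 26.8 and 17.5 in naïve cells, at 1.99 and 4.08 (R1) and at 64.5 and 34.0 (R2). R1 was lower and R2 higher than naïve there, the second R2 library narrowly. WTAP, a subunit of the RNA adenosine methyltransferase complex, was at 58.5 and 78.3 in R2, above the 15.94 and 35.2 of naïve cells, and at 34.8 and 22.4 in R1, within the naïve range. PDE10A, a cyclic nucleotide phosphodiesterase, showed the opposite, with 54.3 and 58.9 in R1, 18.4 and 24.01 in R2, and 4.90 and 23.2 in naïve cells. TBP, the TATA-binding protein, shares its region with PSMB1, a proteasome subunit, and ranked at 12.8 and 46.6 in naïve cells, at 36.3 and 22.4 (R1) and at 51.01 and 75.5 (R2).

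In 16 genes, 3.70% of the 432, a start had a peak in all 4 resistant libraries and in neither naïve library, and 82 genes, or 0.409%, had this pattern among the 20033 protein-coding genes of all chromosomes. They were RIMS1, KCNQ5, COL12A1, IRAK1BP1, RRAGD, FUT9, COQ3, GRIK2, LIN28B, POPDC3 and PRDM1 before 110 Mb, and SLC16A10, SMPDL3A, MYB, STXBP5 and AKAP12 beyond. Among them are LIN28B, an RNA-binding protein that blocks maturation of let-7 miRNAs, MYB and PRDM1, both transcription factors, KCNQ5, a potassium channel, GRIK2, a glutamate receptor subunit, and COL12A1, a collagen. No gene had a start peak in both naïve libraries and in no resistant one. In 68 genes (15.7% against 6.68% genome-wide) the start had a peak in the R1 libraries alone. A start peak in all 6 libraries was found in 158 (36.6% against 59.5%), and 66 had none in any library (15.3% against 12.2%). The R2 lists, in which the 16 starts had peaks, were shallower than the naïve lists, in which they had none. The lowest tag count of a peak was also lower, 6 in R2 against 9 and 7 in the naïve lists. The part of depth in this pattern was not tested.

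Of 6 listed neuroblastoma genes, 3 were ranked, with a median shift of 22.9, and none had all 4 resistant ranks above both naïve ranks. HACE1, a ubiquitin ligase, ranked at 55.1 and 60.7 in naïve cells, at 87.2 and 86.9 (R1) and at 58.5 and 84.7 (R2). The first R2 library lay within the naïve range. CASP8AP2, which acts in histone mRNA processing, had a shift of 32.6, and FYN, a Src-family kinase, one of 22.9. Both rested on single naïve libraries, as CASP8AP2 was at 56.8 and FYN at 34.8 without the first, and at 6.73 and 10.3 without the second. The others, ARID1B, LIN28B and MARCKS, had no shared region at a start.

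Of 20 tumor suppressors and oncogenes, 7 were ranked, all 7 with a positive shift and 4 with every resistant library above both naïve libraries (median 26.6). That share is close to the 52.4% of all regions of the segment, beside 12.7% of all shared regions, and the same holds for the RNA processing and ubiquitin lists described next. ATG5, needed for autophagosome formation, was highest at 51.4 and SESN1, a stress-induced regulator of growth signaling, lowest at 1.16. EPHA7, an ephrin receptor, had the best ranks, 70.1 and 60.7 in naïve cells, at 92.2 and 86.9 (R1) and at 93.3 and 95.3 (R2). Its resistant libraries all lay above the naïve ones.

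Of 12 genes of RNA processing, the process to which RBM39 belongs, 8 were ranked, all positive and 5 above in every resistant library, with a median of 20.3. PPIL4, a cyclophilin, was highest at 46.8 and BCLAF1 lowest at 7.96, or -9.92 without the second naïve library. SYNCRIP, an RNA-binding protein of the hnRNP family, ranked at 52.1 and 76.3 in naïve cells, at 98.6 and 97.4 (R1) and at 92.6 and 89.0 (R2). It carried 400 and 235 tags in R1. Its shift was 29.0, and 18.1 without the first naïve library.

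Of 14 genes of the ubiquitin, SUMO and proteasome systems, 11 were ranked, 10 with a positive shift and 6 above in every resistant library (median 22.6). FBXL4 was highest at 56.2 and FBXO5, an inhibitor of the anaphase-promoting complex, lowest at -0.23. UFL1, the ligase for the modifier UFM1, had a shift of 22.6. Of 11 cell cycle and replication genes, 5 were ranked, 3 positive and 2 above, with a median of 18.3. PHIP was highest at 40.6, or 18.6 without the first naïve library, and CDK19, a kinase of the Mediator complex, lowest at -0.34, and ORC3, a subunit of the origin recognition complex, had a shift of 39.2.

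Few genes of the matrix, adhesion and cell surface were ranked, 2 of 14, and 1 was above in every resistant library. NT5E, an ectonucleotidase of the cell surface, had a shift of 31.3 and EZR, which links membrane proteins to actin, one of 22.3, which was 7.85 with regions of the first R1 list. Of 8 genes of the cytoskeleton and motors, EZR and MYO6 were ranked and both were above. The cell cycle, matrix and cytoskeleton lists had at most 5 ranked genes each. These are too few to set their counts apart from the 52.4% of the regions of the segment, beside 12.7% of all shared regions. No gene of any of the 7 lists had all 4 resistant ranks below both naïve ranks. The list medians ran from 18.3 to 41.2, the latter over the 2 genes of the cytoskeleton and motors, beside 26.0 over all regions of the segment.

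GC boxes lay within 50 bp of the summit at 79 of the 168 regions, 47.0% against 24.9% of all shared regions, and at gene starts alone 49.7% against 37.0%. The starts of the segment were also richer in GC, with a median of 68.7% against 65.3%. Motif shares were not matched for GC content. AP-1 motifs were found at 2 regions, 1.19% against 4.24%, both away from gene starts. Among the 17 regions away from starts these are 11.8%, against 6.18% of all such regions. At starts they were at 0 of 151, against 2.52%. E-boxes were at 7 (4.17% against 3.05%) and TEAD motifs at 6 (3.57% against 5.29%). At gene starts alone TEAD motifs were at 3.31% against 3.36%. CRE motifs were at 2 (1.19% against 0.502%), GATA motifs at 1 (0.595% against 1.14%) and CTCF-type motifs at 5 (2.98% against 3.05%). A match of letters does not show that a factor was bound.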

How the data were processed

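Chromatin accessibility peaks of 6 libraries were used. As the methods and the submitters' processing notes give it, the authors used BWA 0.7.12-r1039 for alignment, Picard 1.65 to mark duplicates and SAMtools 1.3.1 to filter reads. Read ends were offset by +4 and -5 bp. MACS2 2.2.7.1 called the peaks of each library with a q cutoff of 0.01, extending reads to 200 bp after a 100 bp shift. The build is hg19 in the methods and hg19 and hg38 in the notes. Peaks lie within the chromosome lengths of hg38 up to their ends, so hg38 with GENCODE release 44 was used.

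For each peak the authors deposited its coordinates, its summit, a fold enrichment (a ratio over background), a −log10 p-value and a −log10 q-value. The fold equals tags plus 1, divided by the background rate plus 1, and each list has 1 rate, so that rates and tags could be recovered. Since the rate is common to a list, ranking by fold gives the order of ranking by p. Only relative depth is known, and counts of peaks move with it.

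Overlap meant at least 1 shared base, and a region took the highest value of the peaks that met it in a list. Ranks were percentiles of the p-value over the 36449 shared regions, which are those of the first R2 library that meet a peak in every other list. Regions with equal tags tie, so ranks in the shallow lists move in steps. In the second R2 library 10 tags ranked at 24.0 and 11 tags at 34.0. The shift is the mean resistant minus the mean naïve rank, less the median of 20 bins of GC content within 250 bp of the summit. A gene start is any annotated start within 1000 bp. Functions were tested on simulated data. Python 3.11.15, NumPy 2.4.6, pandas 2.3.3, pysam 0.24.0 and BEDTools 2.31.1 were used.

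The genes named are the 8 with the highest and the 4 with the lowest shift, the 4 with the largest difference between R1 and R2, and for each of 7 lists the highest, the lowest and the best ranked. The regions named are the 3 highest, 3 lowest and 3 best ranked, those next to 60 Mb, and the best of each set found in some cell types only. FOXO3, CEP57L1 and the region with the largest difference between R1 and R2 were named after the values were seen. The segment, the lists and these rules were chosen with earlier results of these data known, so no test was made. Alternatives changed the reference list, overlap, q filter, GC adjustment, boundary, bins and libraries.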

Additional observations from a re-analysis of the deposited data

Results flagged for a closer look

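At SYNJ2 the resistant cell types moved in opposite directions from naïve cells. The shift was -18.2 percentile points in R1 and 27.5 in R2, with both R1 libraries below and both R2 libraries above both naïve libraries. The difference was not tested. The SYNJ2 region had 46 and 37 tags in R1 and 14 and 11 in R2, beside 22 and 13 in naïve cells. It was not the only such place. At chr6:170398469-170399612, away from gene starts, both R1 ranks also lay below and both R2 ranks above both naïve ranks. The shifts there were -7.04 in R1 and 51.2 in R2. Further regions had the same order of ranks. Among them, away from starts, were chr6:167432971-167433300, chr6:168840941-168841203 and chr6:170399921-170400296, and at a start of SGK1 chr6:134178378-134178697. How often this order occurs in the genome was not counted.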

How the results depend on the processing

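The shift kept its sign in R1, in R2 and in both together under every alternative run. The median over resistant cells, 26.0, was 22.7 with regions taken from the first naïve list, 23.0 with those of the first R1 list and 15.03 with the union of the 50000 best peaks of each list. In R2 the value of 28.2 became 22.5, 20.02 and 11.0 under these, and in R1 the value of 23.7 was 28.9 for peaks past a stricter q filter and 2.90 away from gene starts. The log2 tag level, 0.54, was 0.46 with regions of the first naïve list. The excess of resistant over naïve cells in the share of top peaks on the segment, 0.648 percentage points for 20000 peaks, was 0.755 for 10000 and 0.426 for 50000. The 4 resistant medians exceeded both naïve medians in 18 of 23 bins of 5 Mb and in 6 of 6 of 20 Mb, against 11 of 12 of 10 Mb. Such bins were not counted in the rest of the genome. Leaving out 1 library at a time gave shifts of 23.0 to 29.1, R2 shifts of 23.9 to 28.2, log2 levels of 0.45 to 0.60 and share differences of 0.556 to 0.739. The division at 109 Mb was chosen after seeing the data. Over all alternatives, recomputed shifts of named genes moved by less than the spread between replicates 400 times and by more 43 times, and those of 10 Mb bins 122 and 34 times. No called value changed sign. Among uncalled genes TBP went from 16.7 to -2.39 without the first naïve library, and SYNJ2 from 4.63 to -10.4 without the first R2 library. The bin from 130 Mb went from 10.2 to 3.75 with regions of the first naïve list, and that from 160 Mb from 17.6 to 10.6 under the q filter. Without the first naïve library the last bin went from 21.3 to 5.39. The causes were not tested. No paired analysis was possible because no result comes from a test. Depth limits the naïve and R2 lists most, since a site with too few tags is in no list, and a missing peak is no sign of closed chromatin.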

Other observations

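The peaks of R1 thickened toward the end of the chromosome more than those of the other cell types. From 155 Mb to the end R1 had 840 and 564 peaks in its libraries, naïve cells 113 and 77, and R2 100 and 89. From 110 to 155 Mb they had 439 and 359, 136 and 104, and 107 and 98. Between 166 and 167 Mb alone R1 had 98 and 69 peaks, naïve cells 17 and 10, and R2 7 and 9. The ranks of shared regions there do not follow the number of peaks, since from 160 to 170 Mb the R1 shift was 1.53 points and the R2 shift 15.7.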
